A study of Mus musculus with 15 samples.

Results

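Expression of 10 genes of the Wnt pathway was followed in the femoral midshaft of male mice that did or did not fly on the International Space Station, with or without a segmental bone defect. The genes were the ligand Wnt10b, the co-receptors Lrp5 and Lrp6, the secreted inhibitors Dkk1, Sfrp1 and Wif1, the cytoplasmic proteins Gsk3b, Ctnnb1 and Axin2, and the nuclear factor Lef1. They were chosen by name, and every probe whose accession carried 1 of the 10 symbols was kept, which gave 15 of the 55681 probes and 10 of the 21154 named genes on the array.

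RNA of 15 animals was hybridized, each against a reference pooled from mouse cell lines, with the sample in Cy5 and the reference in Cy3. All mice were C57BL/6J males labelled as 9 weeks old. The study's methods give this as the approximate age at surgery, and the tissue was taken some weeks later. G-Sham mice (n = 4) were unoperated and stayed on Ground, and FLT-Sham mice (n = 4) were unoperated and flew. G-Surgery mice (n = 4) carried the defect on Ground, and FLT-Surgery mice (n = 3) carried it in Flight. By the study's methods, each operated femur held a scaffold, a pin and a collagen sponge soaked in saline, so that surgery and implant cannot be told apart. The tissue is labelled as callus on all 15 arrays, although the Sham femora had no defect. The carcasses were frozen whole and partly thawed for dissection, and the study calls the integrity of the RNA less than ideal. The labels do not say which mice shared a cage.

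Wnt ligands bind a Frizzled receptor together with Lrp5 or Lrp6. This stops the complex of Axin, APC and the kinase Gsk3b from marking beta-catenin, the product of Ctnnb1, for breakdown, so that beta-catenin enters the nucleus and acts with Lef1 and its relatives. Secreted inhibitors work outside the cell, either on the co-receptors, as Dkk1 does, or by binding the ligands, as Sfrp1 and Wif1 do. In bone the pathway is known for promoting osteoblast formation, for mutations of Lrp5 that lower or raise bone mass, and for its response to mechanical load.

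Promoter sequences are shown for Gsk3b and Wif1, whose probes passed the cut-off in several comparisons. They are also shown for Dkk1 and for the only matched start of Lef1 that, like Dkk1, holds a letter string of the kind bound by Lef1 and related factors. They run from 250 bases before to 50 bases after a RefSeq start in GRCm38.p6, and RefSeq promoters were matched for 7 of the 10 genes (Ctnnb1, Gsk3b, Axin2, Lef1, Dkk1, Wnt10b and Wif1). Capitals mark any CTTTGNN with A or T at both of the last bases, on either strand. Gsk3b lies at chr16:38088751-38089050 on the plus strand, Wif1 at chr10:121033754-121034053 on the plus strand, Dkk1 at chr19:30549447-30549746 on the minus strand, and a start of Lef1 at chr3:131156044-131156343 on the plus strand.
Gsk3b: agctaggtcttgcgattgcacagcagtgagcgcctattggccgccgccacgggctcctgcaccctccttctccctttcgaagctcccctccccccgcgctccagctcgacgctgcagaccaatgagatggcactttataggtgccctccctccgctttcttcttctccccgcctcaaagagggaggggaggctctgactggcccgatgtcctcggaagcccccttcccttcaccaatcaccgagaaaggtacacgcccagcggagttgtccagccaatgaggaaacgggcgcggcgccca
Wif1: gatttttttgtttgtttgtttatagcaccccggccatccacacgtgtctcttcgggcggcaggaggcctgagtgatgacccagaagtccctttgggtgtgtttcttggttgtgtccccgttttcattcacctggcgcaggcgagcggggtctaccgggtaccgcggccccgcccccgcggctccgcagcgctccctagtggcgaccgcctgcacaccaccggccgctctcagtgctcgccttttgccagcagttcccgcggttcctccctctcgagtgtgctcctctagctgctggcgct
Dkk1: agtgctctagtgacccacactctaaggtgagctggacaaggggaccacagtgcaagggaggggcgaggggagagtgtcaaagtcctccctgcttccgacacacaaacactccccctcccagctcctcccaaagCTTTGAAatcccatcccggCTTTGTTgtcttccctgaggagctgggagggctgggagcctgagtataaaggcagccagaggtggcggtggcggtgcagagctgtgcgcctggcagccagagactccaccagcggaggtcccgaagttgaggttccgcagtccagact
Lef1: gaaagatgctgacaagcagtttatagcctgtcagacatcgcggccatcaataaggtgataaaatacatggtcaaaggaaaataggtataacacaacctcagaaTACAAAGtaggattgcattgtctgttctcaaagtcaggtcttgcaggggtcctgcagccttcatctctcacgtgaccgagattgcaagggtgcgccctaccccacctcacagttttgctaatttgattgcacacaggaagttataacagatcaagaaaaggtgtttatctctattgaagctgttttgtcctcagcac
Dkk1 held CTTTGAA starting at position -117 and CTTTGTT starting at position -98 relative to the start site, and Lef1 held CTTTGTA on the opposite strand with its first base at -147. The other matched starts of Lef1 held no such string. Of the 11 promoters matched to members, 2 held at least 1 such string, beside 16.9% of all 32851 mouse promoters of this length. The Gsk3b and Wif1 windows held no such string, which says nothing on whether such factors act there.

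Detection set what could be compared. A spot is well above background when its signal clears the local background by the scanner software's own test. At the brightest probe of each gene, Gsk3b, Lrp5, Lrp6 and Lef1 were well above background in Cy5 on all 15 arrays. Ctnnb1 was above on 10 arrays, Wif1 on 4, Axin2 on 3, Wnt10b on 3 and Dkk1 on 1. Sfrp1 was above on none. The number of the 10 genes above background ran from 4 to 7 per array. Across all probes this share was 22.4% to 38.5% per array, with all 3 FLT-Surgery arrays between 22.4% and 25.6%. FLT-Sham replicate 8 stood apart from the other FLT-Sham arrays with 26.6% against 34.9% to 38.5%. No member spot was saturated in Cy5.

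The cells in the segment were checked with marker lists. Of 14 osteoblast and osteocyte markers, 5 to 10 were above background per array, with Col1a1, Col1a2, Spp1, Bglap2 and Pdpn on all 15, while Sp7, Dmp1, Phex and Sost were on none. The osteocyte genes among these include Sost, itself a secreted Wnt inhibitor. Of 12 skeletal muscle markers, 9 to 12 were above background on every array, and their mean log2 ratio spanned 6.13 to 8.76 in G-Sham, 6.64 to 8.81 in FLT-Sham, 5.75 to 7.96 in G-Surgery and 3.80 to 7.11 in FLT-Surgery. Neutrophil markers ranged from 4.42 to 6.98 in G-Sham, 6.34 to 7.63 in FLT-Sham, 4.73 to 6.38 in G-Surgery and 3.05 to 5.59 in FLT-Surgery, with 4 to 7 of 7 above background. Adipocyte markers ranged from 2.56 to 4.41 in FLT-Sham, with 3 to 5 of 6 above background, and from -0.79 to 3.15 over the other 3 groups, with 0 to 4 of 6. The part of these lists in the Wnt results was not tested. In bulk RNA, fewer cells of a type and less RNA per cell cannot be told apart.

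A probe was tested where it was above background on at least 3 of the arrays compared, and it was called when the fold change was at least 2 and the limma p, before adjustment, was at most 0.01. With these rules 8 member probes were tested in FLT-Sham versus G-Sham, 6 in FLT-Surgery versus G-Surgery, 8 in G-Surgery versus G-Sham and 8 in FLT-Surgery versus FLT-Sham. The median log2 fold change over all tested probes was not 0 in the deposited log ratios. It was 0.24 for FLT-Sham versus G-Sham, -0.20 for FLT-Surgery versus G-Surgery, 0.14 for G-Surgery versus G-Sham and -0.28 for FLT-Surgery versus FLT-Sham, and member values are read against it. Other settings, named where they matter, included a further intensity-dependent dye correction (a second loess), a background model fitted to each dye with its own loess (the dye-wise background model), centring each array on its median, and the Cy5 signal without the reference (Cy5 alone). No member reached an adjusted p of 0.05 in limma in any comparison, and the lowest was 0.131. Over all probes this level was reached by 0%, 0%, 0.0113% and 0.0836% in the same order. At an unadjusted p of 0.05 there were 1, 1, 2 and 3 member probes, beside 9.57%, 16.4%, 10.9% and 24.3% of all probes.

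Wnt10b, the ligand of the set, was at the edge of detection. In FLT-Sham it was above background in replicates 4 and 6, with log2 ratios of 0.11 and -0.09, while replicates 8 and 9 read -0.03 and -2.47 below background. G-Sham arrays read -1.51, -2.55, -0.58 and -2.34, all below background. In G-Surgery replicate 1 was above background at 0.14, and the other 3 arrays, between -2.19 and -1.02, were not. FLT-Surgery arrays, at -0.60, 0.30 and -1.0, were all below background. The groups overlapped, and Wnt10b was too rarely detected to be tested in a pairwise comparison.

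Lrp6, a co-receptor, was the member past the cut-off for surgery on Ground. Its brightest probe (A_55_P2118391) read 1.27, 1.78, 1.42 and 2.44 in G-Sham and 3.33, 3.67, 3.32 and 2.54 in G-Surgery, as log2 ratios over the reference. Every G-Surgery array lay above every G-Sham array, although the lowest G-Surgery array and the highest G-Sham array were close. The difference was 1.49 on the log2 scale (SE 0.36, 95% interval 0.67 to 2.30, limma adjusted p = 0.271), a 2.81-fold higher level after surgery. Lrp6 was the 1 member of 8 tested probes past the cut-off here, beside 2.59% of all tested probes and 2.08% in this direction, and groups did not overlap for 6.86% of all probes. Arrays were spread over 3 slides, and the difference was 1.28 on slide 1 and 1.82 on slide 2. Chondrocyte markers were also higher, with mean log2 ratios of 0.86 to 2.47 and 3 to 4 of 7 above background in G-Surgery against -0.72 to 0.36 and 1 to 3 of 7 in G-Sham. Within G-Surgery their highest mean (2.47, replicate 5) fell on the array with the lowest Lrp6 (2.54). Macrophage markers were higher too, at -0.14 to 0.37 with 3 to 5 of 5 above background in G-Surgery against -1.12 to -0.48 with 2 to 3 of 5 in G-Sham. Osteoclast markers were at 0.43 to 1.47 with 3 to 4 of 7 above background in G-Surgery. In G-Sham they were at -1.27 to 0.61 with 2 to 3 of 7, so that the ranges overlapped. The part of these lists in the Lrp6 difference was not tested.

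The second Lrp6 probe (A_55_P2041360) was dim. It gave -0.11, 0.89, -0.22 and -0.72 in G-Sham, with 1 array above background, and 1.51, 0.79, 0.65 and -0.67 in G-Surgery, with 3 above. The groups overlapped, and the difference of 0.61 (SE 0.51, 95% interval -0.56 to 1.78, limma adjusted p = 0.668) did not pass, with -0.39 on slide 1 and 1.21 on slide 2. With the slide as a block, or with all 15 arrays sharing an estimate of spread, the brightest Lrp6 probe kept its size (1.53 and 1.49) but missed the p of 0.01.

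In Flight the Lrp6 arrays did not hold together. FLT-Sham arrays read 2.53, 2.53, 1.79 and 2.23 at the brightest probe. FLT-Surgery arrays read 4.90 in replicate 1, 1.45 in replicate 3 and 1.04 in replicate 5, so that replicate 1 was the highest of all 15 arrays and replicate 5 the lowest. FLT-Surgery differed from G-Surgery by -0.75 (SE 0.89, 95% interval -2.83 to 1.32, limma adjusted p = 0.676) and from FLT-Sham by 0.19 (SE 0.89, adjusted p = 0.892). Without FLT-Surgery replicate 1 the differences were -1.97, past the cut-off, and -1.03, short of it. The second probe ordered the same arrays the other way, with -1.13 in replicate 1, 0.33 in replicate 3 and 2.31 in replicate 5. Of these only replicate 5 was above background at that probe. FLT-Sham minus G-Sham was 0.54 (SE 0.37, 95% interval -0.29 to 1.38).

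Lrp5, the other co-receptor, was measured by 1 probe and was well above the reference on all arrays. It read 3.65, 3.46, 2.75 and 2.96 in G-Sham and 2.43, 1.98, 3.54 and 2.69 in FLT-Sham. It read 3.56, 3.47, 3.64 and 3.46 in G-Surgery and 3.32, 3.91 and 4.12 in FLT-Surgery. The G-Surgery arrays lay within a narrow band (SD 0.09, n = 4) and the FLT-Sham arrays were widely spread (SD 0.66, n = 4). The highest mean was in FLT-Surgery (3.78 ± 0.42, SD, n = 3) and the lowest in FLT-Sham (2.66). That pair differed by 1.12 (SE 0.47, 95% interval 0.04 to 2.20, limma adjusted p = 0.196), which missed the cut-off, and the groups overlapped through FLT-Sham replicate 8. Without that array the difference was 1.42, past the cut-off. The arrays of G-Sham (mean 3.20), G-Surgery (mean 3.53) and FLT-Surgery overlapped. The differences were 0.33 (SE 0.27) for surgery on Ground and 0.25 (SE 0.28) for Flight after surgery, both short of the cut-off. FLT-Sham minus G-Sham was -0.54 (SE 0.41).

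**Figure D1:**
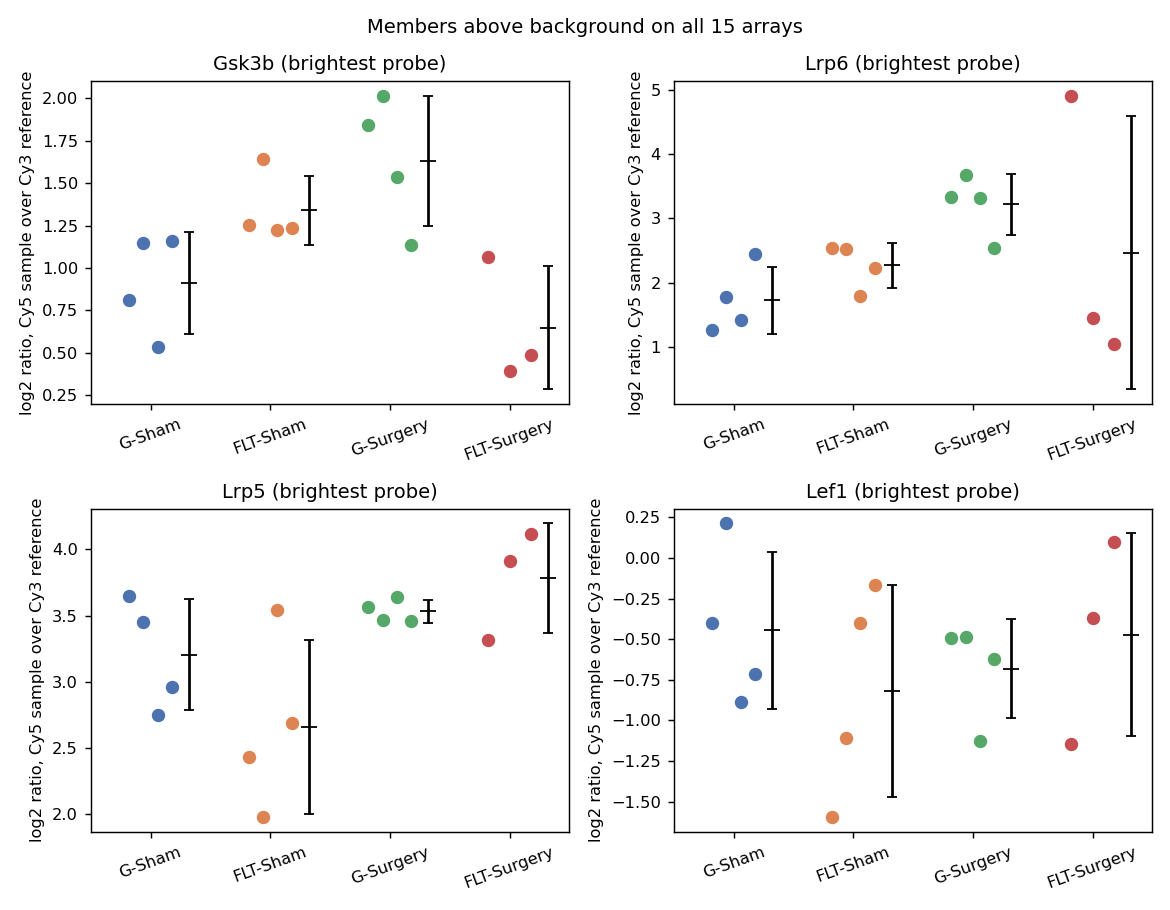
Log2 ratio of sample (Cy5) over reference (Cy3) at the brightest probe of the 4 genes above background on all 15 arrays, 1 point per array in replicate order, with the group mean and SD as black bars. Gsk3b in FLT-Surgery (0.39 to 1.06) lies below both G-Surgery (1.14 to 2.01) and FLT-Sham (1.23 to 1.64), Lrp6 in G-Surgery lies above G-Sham, and 1 FLT-Surgery array of Lrp6 stands at 4.90.

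Of the secreted inhibitors, Wif1, which binds Wnt ligands directly, was seen mostly in FLT-Sham. Its log2 ratios there were 4.57, 4.57, 2.39 and 4.02, and all but replicate 8 were above background. G-Sham arrays read -0.02, 0, -0.37 and 3.64, and only the last, replicate 5, was above background. G-Surgery arrays read 1.37, -0.74, 0 and 0, and FLT-Surgery arrays read 2.48, 0 and 1.48, none of them above background. A log ratio of exactly 0 is what the software writes when neither channel was measured. The reference was above background for Wif1 on 1 array, of G-Sham, so the size of the other ratios rests on a reference signal at background.

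The fitted Wif1 value was 3.08 higher on the log2 scale in FLT-Sham than in G-Sham (SE 0.93, 95% interval 0.95 to 5.20, limma adjusted p = 0.491). Its size is not well measured, since only 1 of 4 G-Sham arrays was above background. Wif1 was the 1 member of 8 tested probes past the cut-off. The FLT-Sham arrays alone met the detection filter, so this count cannot be read against the 2% of all tested probes that passed, or the 1.79% in this direction. The groups overlapped through G-Sham replicate 5, and the difference passed the cut-off under 6 of 18 other settings, between 0.22 and 4.02, with 0.22 from the dye-wise background model and 1.49 from Cy5 alone. Leaving out any 1 array lost the call, except G-Sham replicate 5 (4.02) and FLT-Sham replicate 8 (3.57). Adipocyte markers moved with it, with a mean of 3.15 in G-Sham replicate 5 against -0.04 to 1.43 on the other G-Sham arrays, and 2.56 in FLT-Sham replicate 8 with the rest of FLT-Sham at 4.22 to 4.41. Their part in the Wif1 difference was not tested. Within slide 2 the Wif1 difference was 1.85 and on slide 1, with 1 array of each group, 4.57. In FLT-Surgery no array was above background and Wif1 was tested against FLT-Sham only through the FLT-Sham arrays. In the Cy5 signal scaled between arrays, the FLT-Sham mean was at least 1.43-fold higher. The fit of the log ratios gave a limma adjusted p of 0.149. Wif1 passed the cut-off there under 6 of 14 other settings, with fitted values from -3.71 to -0.25, was short of it without FLT-Surgery replicate 3 or 5, and could not be tested without FLT-Sham replicate 4, 6 or 9. Adipocyte markers (-0.79 to 1.63 in FLT-Surgery), neutrophil markers and erythroid markers (4.33 to 5.33 in FLT-Sham and 1.45 to 3.41 in FLT-Surgery) were also lower in FLT-Surgery than in FLT-Sham, and their part in this result was not tested.

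Dkk1, the inhibitor that acts on Lrp5 and Lrp6, was detected on 1 array. G-Surgery replicate 5 had a Cy5 signal of 440 and a log2 ratio of 5.41, while the other 3 G-Surgery arrays had signals of 14.1 to 17.7 and a ratio of 0. Over the other 3 groups the Dkk1 signal lay between 12.9 and 92.3. Sfrp1, which also binds ligands, had signals of 15.2 to 41.3 on the 15 arrays and was below background on every one. No difference was detectable for either gene at these signals, which does not show that they are absent.

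**Figure D2:**
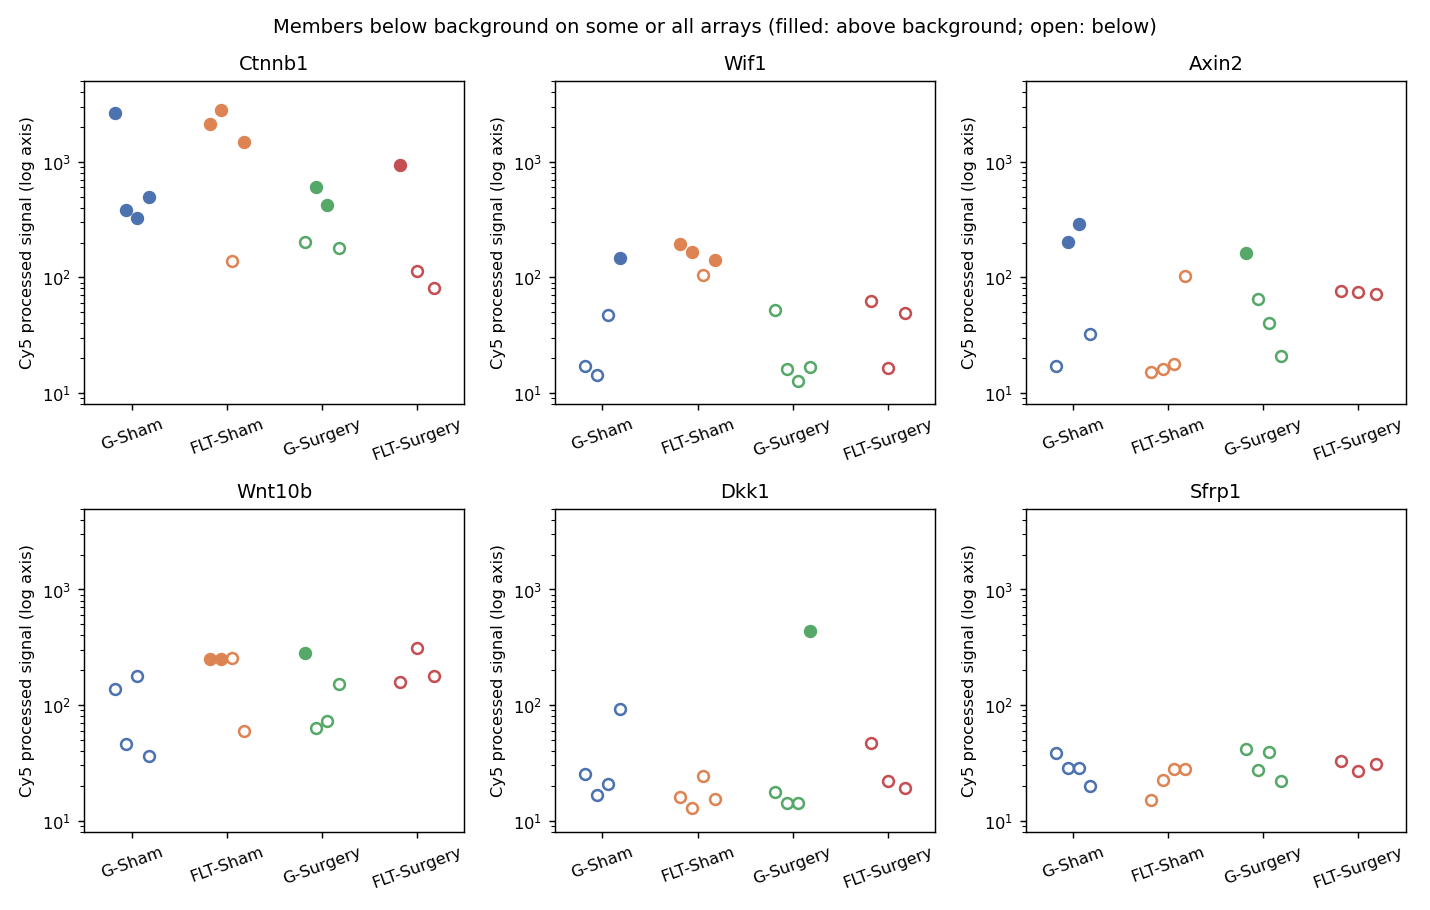
Cy5 processed signal on a log axis, not scaled between arrays, at the brightest probe of the 6 genes below background on some or all arrays, 1 point per array, filled where well above background and open where not. Filled points of Wif1 are 3 FLT-Sham arrays and 1 G-Sham array, Dkk1 has 1 filled point (440, G-Surgery), and Sfrp1 has none.

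Gsk3b, the kinase that marks beta-catenin for breakdown, was the member past the cut-off in the test of whether the Flight difference depended on surgery. At its brightest probe (A_55_P1981415) G-Sham arrays read 0.81, 1.15, 0.53 and 1.16, and FLT-Sham arrays read 1.25, 1.64, 1.23 and 1.24. G-Surgery arrays read 1.84, 2.01, 1.53 and 1.14, and FLT-Surgery arrays read 1.06, 0.39 and 0.49. All FLT-Surgery arrays lay below all G-Surgery arrays and below all FLT-Sham arrays, and all FLT-Sham arrays lay above all G-Sham arrays, although the lowest FLT-Sham array (1.23) and the highest G-Sham array (1.16) were close.

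After surgery the Flight level was 0.98 lower (SE 0.32, 95% interval -1.73 to -0.23, limma adjusted p = 0.280), a 1.98-fold lower level that missed both parts of the cut-off. It passed without G-Surgery replicate 5 (-1.15) and without FLT-Surgery replicate 1 (-1.19). It also passed with the slide as a block and with array weights. No member of the 6 tested probes passed in FLT-Surgery versus G-Surgery, beside 3.14% of all tested probes (1.05% higher and 2.09% lower). At an unadjusted p of 0.05, 1 member probe and 16.4% of all probes passed, and groups did not overlap for 13.6% of all probes. In the unoperated mice the Flight difference was 0.43 (SE 0.30, 95% interval -0.25 to 1.10, limma adjusted p = 0.548), and groups did not overlap for 4.6% of all probes. The difference between these Flight effects, tested in 1 model over all 15 arrays, was -1.41 (SE 0.42, 95% interval -2.31 to -0.50, limma adjusted p = 0.172), past the cut-off, beside 5.33% of all tested probes and 4.97% in this direction. The median of this difference over all probes was -0.37, and 39.2% of them lay above 0. At an unadjusted p of 0.05 the interaction had 2 member probes of 10, both of Gsk3b, beside 19.5% of all probes.

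The size of the Gsk3b interaction depended on scaling. It kept its sign under all 25 other settings, between -1.63 and -0.72, and passed the cut-off under 14 of them. With a second loess it was -0.72, with median centring -0.88 and from Cy5 alone -0.94, all short of the cut-off, and the median of all probes then lay at 0.50, 0.17 and 0.16. Leaving out FLT-Surgery replicate 3 or 5 also lost the call, as did leaving out G-Sham replicate 4, FLT-Sham replicate 6 or either of G-Surgery replicates 1 and 3. With the slide as a block the interaction was -1.28 and short of the cut-off. On slide 1 FLT-Surgery minus G-Surgery was -1.06 and on slide 2, with 1 array of each group, -0.95. Muscle and neutrophil markers also reached their lowest means in FLT-Surgery (3.80 and 3.05), in ranges that overlapped G-Surgery. Chondrocyte markers (-0.34 to 0.36 with 1 to 2 of 7 above background, against 0.86 to 2.47 with 3 to 4 in G-Surgery) and B cell markers (-1.88 to -1.68 with 0 to 1 of 6, against -1.29 to -0.10 with 1 to 3) were lower without overlap, and the part of these 4 lists in the Gsk3b difference was not tested. On Ground surgery gave 0.72 (SE 0.29, limma adjusted p = 0.422), and in Flight -0.69 (SE 0.35, adjusted p = 0.251).

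The second Gsk3b probe (A_66_P104190) was dimmer. It read 0.70, 0.73, -1.87 and 0.02 in FLT-Sham, with all but replicate 8 above background, and -2.65, -3.91 and -3.83 in FLT-Surgery, all below. The groups did not overlap. Because no FLT-Surgery array was above background, only a bound on the group means is given. In the Cy5 signal scaled between arrays, the FLT-Sham mean was at least 4.45-fold higher. The fit of the log ratios gave a limma adjusted p of 0.131. The cut-off was lost with the dye-wise background model, where the fitted difference was only -0.30. Without FLT-Sham replicate 4, 6 or 9 the probe could not be tested. Adipocyte, neutrophil and erythroid markers were lower in FLT-Surgery, as given for Wif1. B cell markers were also lower, at -1.88 to -1.68 against -0.70 to 0.23 in FLT-Sham. The part of these lists at the second Gsk3b probe was not tested. This probe and Wif1 were the members past the cut-off in FLT-Surgery versus FLT-Sham, and both were tested there only because they were above background in FLT-Sham. Their count therefore cannot be read against the 6.65% of all tested probes that passed, or the 6.23% that passed and were lower. Groups did not overlap for 14.7% of all probes. G-Sham arrays read -2.49, -0.80, -1.27 and -0.96 and G-Surgery arrays -1.98, -0.47, -2.24 and -1.58, with 2 of 4 above background in each and a difference of -0.19 (SE 0.50). The interaction at this probe also passed the cut-off (limma adjusted p = 0.170), but it rests on FLT-Surgery values below background. Its fitted value is therefore not a measured size. The third probe (A_51_P514412) was below background on every array.

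**Figure D3:**
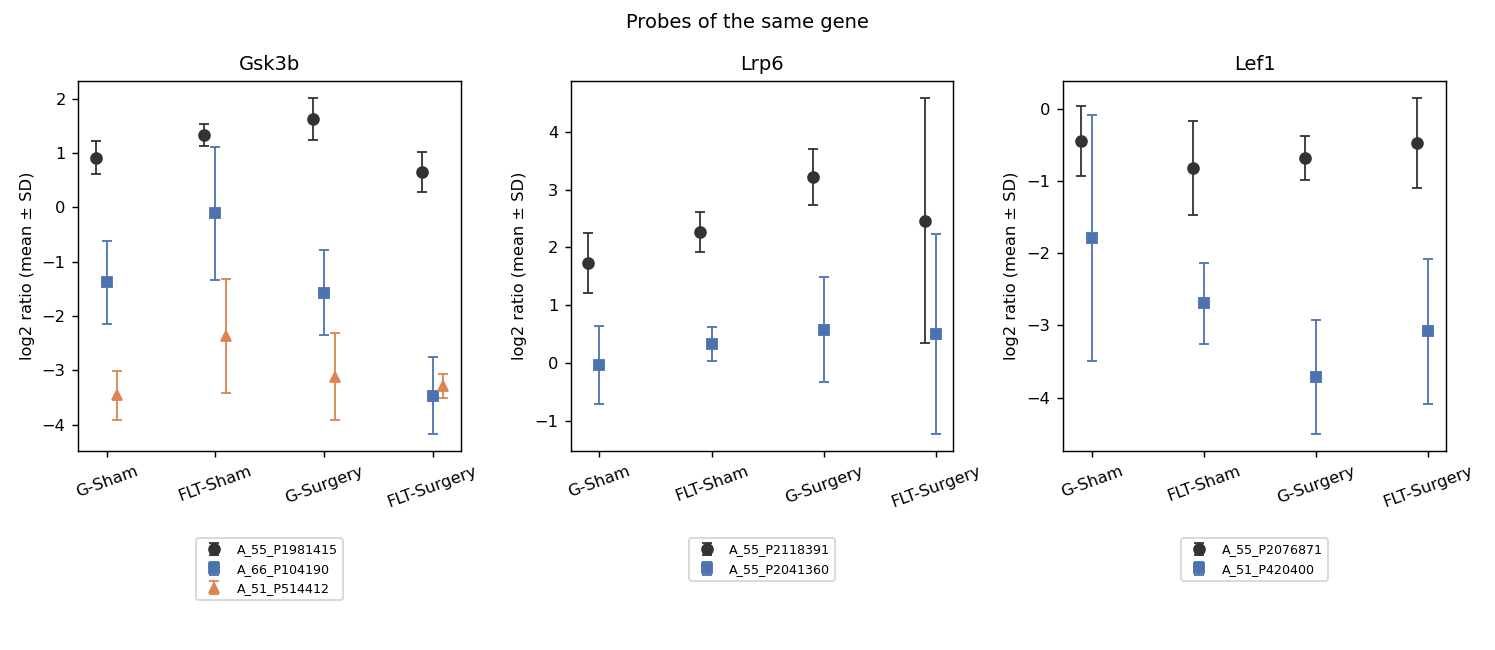
Log2 ratio (mean ± SD over the arrays of a group) at each probe of Gsk3b, Lrp6 and Lef1. The 2 detected Gsk3b probes are both lowest in FLT-Surgery (0.65, and -3.46 with all 3 arrays below background) but differ in G-Surgery, where only the brighter probe has its highest mean (1.63), and the dim Lef1 probe has a wide bar in G-Sham that rests on 1 array.

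Ctnnb1, which encodes beta-catenin, lay far below the reference, and its arrays were widely spread. It read -3.16, -3.87, -4.08 and -2.90 in G-Sham, -1.68, -1.36, -5.56 and -2.21 in FLT-Sham, -5.03, -3.28, -3.64 and -5.43 in G-Surgery and -2.34, -5.79 and -6.55 in FLT-Surgery. It was above background on 4 of 4, 3 of 4, 2 of 4 and 1 of 3 arrays in that order. FLT-Sham replicate 8 was the low one of its group and FLT-Surgery replicate 1 the high one of its group. The probe had 2 spots, which in G-Sham replicate 1 disagreed, with Cy5 signals of 5172 and 88.9.

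None of the pairwise Ctnnb1 differences passed the cut-off. Flight gave 0.80 (SE 0.88) in Sham and -0.55 (SE 1.04, 95% interval -2.96 to 1.87) after surgery, and surgery gave -0.84 (SE 0.54) on Ground and -2.19 (SE 1.30, 95% interval -5.21 to 0.83, limma adjusted p = 0.298) in Flight. Without FLT-Sham replicate 8, FLT-Sham minus G-Sham was past the cut-off, at 1.75.

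Axin2, a scaffold of the breakdown complex whose transcription Wnt signalling is known to raise, was above background on 3 arrays. These were G-Sham replicates 3 and 4, at 4.13 and 4.11, and G-Surgery replicate 1, at 3.67. The other 12 arrays read between -0.68 and 2.25 with Cy5 signals of at most 103. Of the pairwise comparisons it could be tested only in G-Surgery versus G-Sham, where it was -0.91 (SE 1.14, 95% interval -3.49 to 1.68, limma adjusted p = 0.769). The interaction did not pass the cut-off (limma adjusted p = 0.390) and is given no size, since no Flight array was above background. The reference was above background for Axin2 on 0 of 15 arrays, so its ratios rest on a reference signal at background. Its second probe was below background on all 15 arrays.

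Lef1, the nuclear partner of beta-catenin, was close to the reference and did not separate the groups. At its brightest probe (A_55_P2076871) it read -0.40, 0.21, -0.88 and -0.71 in G-Sham, -1.59, -1.11, -0.40 and -0.17 in FLT-Sham, -0.49, -0.49, -1.13 and -0.62 in G-Surgery and -1.14, -0.37 and 0.10 in FLT-Surgery. All 4 groups overlapped. The differences were -0.37 (95% interval -1.34 to 0.60) for Flight in Sham, 0.21 (-0.63 to 1.05) for Flight after surgery, -0.24 (-0.95 to 0.47) for surgery on Ground and 0.35 (-0.81 to 1.5) for surgery in Flight. The dim Lef1 probe (A_51_P420400) was above background only in G-Sham replicate 4, at 0.76, against -4.54 to -2.21 on the other 14 arrays. That array is the only one on its slide.

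**Figure D4:**
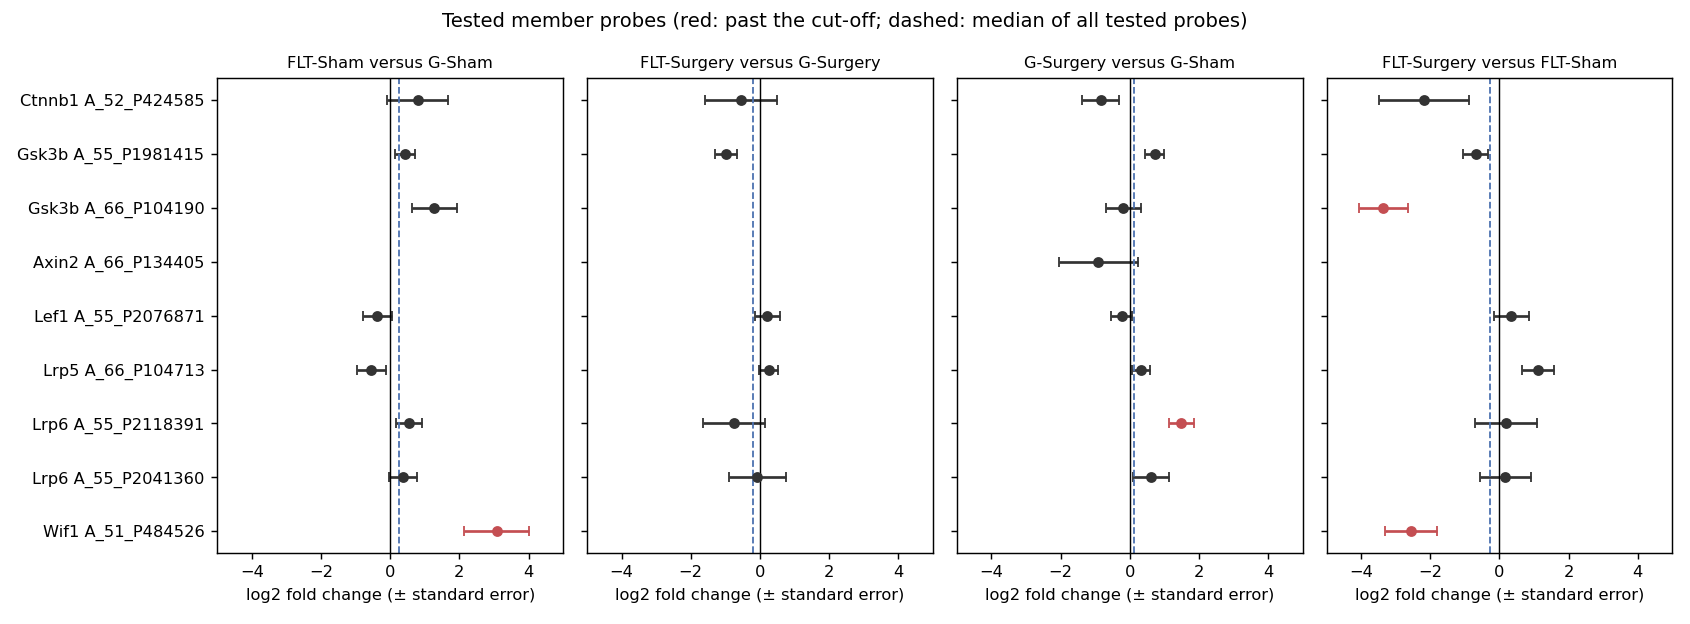
Log2 fold change with its standard error for each member probe tested in the 4 pairwise comparisons, with probes past the cut-off in red and the median of all tested probes as a dashed line. Past the cut-off lie Wif1 in FLT-Sham versus G-Sham (3.08, with 1 of 4 G-Sham arrays above background) and Lrp6 in G-Surgery versus G-Sham (1.49). A Gsk3b probe and Wif1 also pass in FLT-Surgery versus FLT-Sham. Both are below background there on all 3 FLT-Surgery arrays, so that their plotted sizes are not measured.

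The wider pathway was read from 98 further genes in 6 lists, each at its brightest probe. All 98 were matched, and 55 were tested in FLT-Sham versus G-Sham, 49 in FLT-Surgery versus G-Surgery, 53 in G-Surgery versus G-Sham and 53 in FLT-Surgery versus FLT-Sham. Only Wls passed the cut-off, in FLT-Sham versus G-Sham, which is 1 of 55. This gene, the carrier that escorts Wnt ligands to the cell surface, read -2.93, -2.82, -4.92 and -3.55 in FLT-Sham and -5.86, -5.45, -5.0 and -4.96 in G-Sham, with 3 and 0 arrays above background. The groups did not overlap, although FLT-Sham replicate 8 (-4.92) lay next to the highest G-Sham array (-4.96). Endothelial marker means were 3.05, 2.96, 0.85 and 2.35 in FLT-Sham against 0.73 to 1.33 in G-Sham. Adipocyte means were 4.41, 4.37, 2.56 and 4.22 against -0.04 to 3.15. The part of both lists in the Wls difference was not tested. Wls was tested only through FLT-Sham, so its count cannot be read against the 2% of all tested probes that passed. In the Cy5 signal scaled between arrays, the FLT-Sham mean was at least 2.46-fold higher. The fit of the log ratios gave a limma adjusted p of 0.471. Wls missed the cut-off with the second loess, the dye-wise background model (where its sign turned, at -0.28), all 15 arrays in the fit, no filter on dim probes and the slide as a block. In the other 3 pairwise comparisons 0 pathway genes passed the cut-off in limma, with 10, 4 and 15 at an unadjusted p of 0.05 or less for FLT-Surgery versus G-Surgery, G-Surgery versus G-Sham and FLT-Surgery versus FLT-Sham, beside 16.4%, 10.9% and 24.3% of all probes. These counts of 0 depended on the fit. In FLT-Surgery versus G-Surgery 7 genes were lower past the cut-off with the slide as a block, 6 were lower with array weights and 3 were higher with a second loess. In FLT-Surgery versus FLT-Sham 1 was higher and 7 were lower when fitted on all 15 arrays, and 5 and 20 with array weights. In G-Surgery versus G-Sham at most 1 gene passed under any of the settings run with all arrays.

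Counts by sign leaned the way all probes did. In FLT-Sham versus G-Sham 40 of 55 pathway genes had a positive value and 15 a negative one, with a median of 0.47, while 61.1% of all tested probes were positive. In FLT-Surgery versus G-Surgery 15 were positive and 34 negative, with a median of -0.29, and 37.8% of all probes were positive. Surgery gave 36 positive and 17 negative values on Ground, beside 59.9% positive over all probes, and 15 and 38 in Flight, beside 41.5%. With a second loess the split after surgery turned to 32 positive and 17 negative and the median to 0.31, and the median of all probes also turned, to 0.30, so no direction is given to the pathway. The Sham median with the second loess was 0.06. Some of the 55 genes, Jag1, Wnt9a and Wls among them, were tested through FLT-Sham alone. With both channels required above background on every array, 18 were positive and 13 negative, with a median of 0.08.

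By role, the 10 tested ligand and secretion genes had a median of 0.74 for Flight in Sham, and the 7 tested after surgery -0.36. The receptors and R-spondins gave 0.88 (6 tested of 23) and -0.63 (6 tested), and the secreted and membrane inhibitors 0.76 (6 of 12) and -0.74 (7 tested). The cytoplasmic machinery was the most detected list, with medians of 0.43 (16 of 18) and -0.29 (15 tested). Nuclear factors gave 0.08 (11 of 16) and 0.20 (11 tested), and target genes 0.38 (6 of 9) and -0.16 (3 tested). Apart from Wls none of these genes passed the cut-off, so the medians are descriptions of the tested members.

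**Figure D5:**
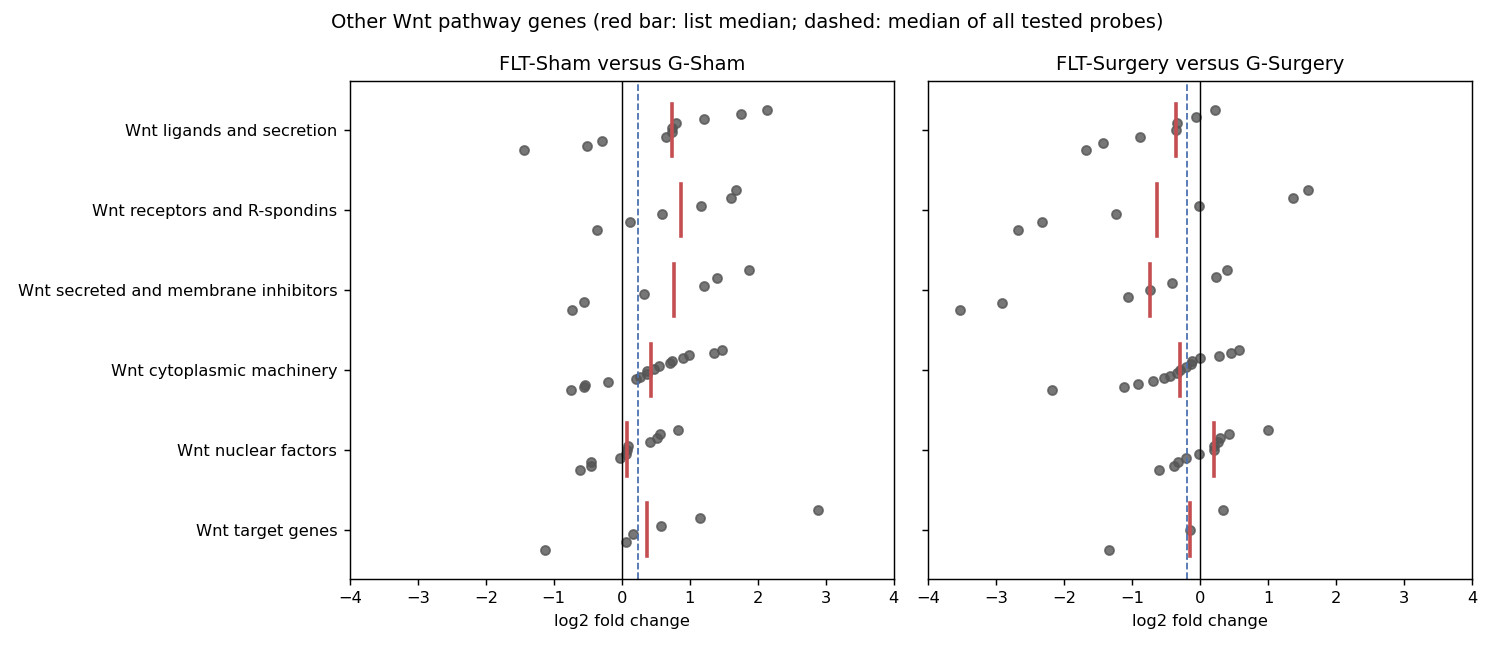
Log2 fold change of each tested gene of the 6 other Wnt pathway lists, for Flight in the Sham mice (left) and after surgery (right), with the list median as a red bar and the median of all tested probes as a dashed line. Ligand, receptor and inhibitor medians lie to the right of the dashed line on the left (0.74, 0.88 and 0.76) and to its left on the right (-0.36, -0.63 and -0.74), while with a second loess the median over all 6 lists after surgery turns to 0.31.

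The genes whose pattern was most like a member's were found among 4483 genes above background on all 15 arrays, by Pearson correlation of log2 ratios over the 15 arrays. These arrays share their groups, slides and dye normalization, so the values are descriptions. Gsk3b was most like Timm10b (r = 0.926, rho = 0.932) and Ddx6 (r = 0.926, rho = 0.936). Ddah2 was among the genes most like Lrp6 (r = 0.901, rho = 0.90). Lrp5 was most like Lce1a2 (r = 0.980, rho = 0.954) and S100a16 (r = 0.979, rho = 0.882), and Lef1 most like Rgs12 (r = 0.853, rho = 0.871) and Caprin1 (r = 0.823, rho = 0.689). Among the members themselves the 4 detected genes gave r from -0.50, for Lef1 with Lrp6, to 0.65, for Gsk3b with Lrp6, over the same 15 arrays. For Lrp5 11.4% of the compared genes had r above 0.8, and for Lef1 0.0446%.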

How the data were processed

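Femur RNA of 15 mice was hybridized to 2-colour Agilent 8x60k arrays against a common reference, with no dye swap. Per the file headers, Agilent Feature Extraction 12.0 gave the deposited intensity signals, background flags and log10 ratios, which were already background-subtracted and dye-normalized. The deposited log10 ratio was turned to log2 and used without further normalization, outlier spots were left out and spots of a probe were averaged. Log ratios were exactly 0 on 16.2% to 33.1% of probes per array. Symbols came from accessions through RefSeq (GRCm38.p6), for 28026 of 55681 probes. A gene was given by its brightest probe. Each pairwise comparison was fitted with limma 3.58.1 in R 4.3.3 on its own arrays, and the interaction on all 15, with Benjamini-Hochberg adjustment over all tested probes. Probes well above background on at least 3 compared arrays were tested. The code was tested on simulated data. The members, gene lists and cut-off were chosen with earlier results of these data known. Named genes were all members, up to 3 pathway genes per comparison and direction past the cut-off without overlap, and genes most correlated with a member. Alternatives covered dye and background correction (the dye-wise background model, normexp, used median signals), scaling, filters, slides, array weights and left-out arrays. The number of arrays limits the precision. Each mouse gave 1 array. A level bound compares the brighter group's mean Cy5 signal, scaled between arrays, with the dimmer group's detection floor. It carries no sampling error and holds for that scaling only.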

Additional observations from a re-analysis of the deposited data

Results flagged for a closer look

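Over the 15 member probes and the 3 groups of 4 arrays, 7 of 45 combinations held an array far from the other 3. Chance gives about 2.25 for measured values with a normal spread. The 2 counts cannot be compared, since Dkk1 was flagged against ratios of exactly 0, and Sfrp1 and A_51_P514412 were below background on every array. FLT-Sham replicate 6 read 1.64 at the brightest Gsk3b probe, against 1.23 to 1.25 on the others. G-Surgery replicate 1 read -1.93 at the Gsk3b probe that was below background everywhere (A_51_P514412), against -3.57 to -3.47. G-Sham replicate 4 read 0.76 at the dim Lef1 probe (A_51_P420400), against -2.85 to -2.45. G-Surgery replicate 5 read 5.41 for Dkk1, against 0 on the others. FLT-Sham replicate 9 read -0.85 for Sfrp1, against -0.21 to -0.09, and -2.47 for Wnt10b, against -0.09 to 0.11. G-Sham replicate 5 read 3.64 for Wif1, against -0.37 to 0.

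In the interaction test the brightest Gsk3b probe passed the cut-off at -1.41 (limma adjusted p = 0.172), beside 5.33% of all tested probes. It passed under 14 of 25 other settings. The fitted value at A_66_P104190 was -3.17 (limma adjusted p = 0.170), and it was -0.23 with normexp. Neither value is a measured size, since the FLT-Surgery arrays were all below background at this probe.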

How the results depend on the processing

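Of the 31 member fold changes, 25 kept their sign under every setting run. The count of member probes past the cut-off in FLT-Sham versus G-Sham, 1 in the setting reported, was 0 with a second loess, normexp, median centring, Cy5 alone, no filter, a filter on both channels and the slide as a block, and 3 with array weights. It ran from 0 to 3 when 1 array was left out (3 without FLT-Sham replicate 8). In FLT-Surgery versus G-Surgery 0 became 1 with the slide as a block and with array weights, and 0 to 2 with an array left out (2 without FLT-Surgery replicate 1, Gsk3b and Lrp6, and 1 without G-Surgery replicate 5). In G-Surgery versus G-Sham 1 became 0 when fitted on all 15 arrays or with the slide as a block, and stayed 1 with any array left out. In FLT-Surgery versus FLT-Sham 2 became 0 with normexp and the filter on both channels, 1 with median centring, Cy5 alone, no filter and the slide as a block, 4 with array weights, and 0 to 3 with an array left out (0 without FLT-Sham replicate 4, 6 or 9, 3 without FLT-Sham replicate 8). The interaction count of 2 became 0 with a second loess and normexp, 1 with median centring, Cy5 alone, the filter on both channels and the slide as a block, 5 with array weights, and 0 to 3 with an array left out (0 without FLT-Surgery replicate 3 or 5, 3 without FLT-Surgery replicate 1).

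Signs turned for Ctnnb1 in FLT-Surgery versus G-Surgery (0.15 with a second loess, 0.57 with normexp, and -0.91 to 0.28 with an array left out), for Lef1 there (-0.074 to 0.55 with an array left out), and in FLT-Surgery versus FLT-Sham for Ctnnb1 (0.34 with normexp) and Lrp6 (-0.048 with normexp, -0.75 with array weights, and -1.03 to 0.91 with an array left out). In the interaction they turned for Ctnnb1 (0.54 with normexp) and Wnt10b (1.59 with a second loess, 0.27 with median centring, 0.46 with Cy5 alone, and -0.88 to 0.016 with an array left out). The cause was not tested.

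The second loess moved the split of all probes past the cut-off, higher against lower, from 353 and 41 to 159 and 86 in FLT-Sham versus G-Sham, from 173 and 346 to 1163 and 60 in FLT-Surgery versus G-Surgery, from 368 and 90 to 232 and 178 in G-Surgery versus G-Sham, from 81 and 1191 to 623 and 569 in FLT-Surgery versus FLT-Sham, and from 78 and 1082 to 679 and 228 in the interaction.

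Deviations of same-numbered arrays from their group means had correlations of -0.40 to 0.39. The numbers were not used to pair the mice, but so few values cannot exclude that they mark a shared cage or batch. With a replicate block the count of member probes past the cut-off was 0 in FLT-Surgery versus G-Surgery, and 0 in G-Surgery versus G-Sham, where Lrp6 kept its 1.49 but missed the p of 0.01. Over all probes the block gave 215 calls in place of 519 and 389 in place of 458. FLT-Sham shared too few numbers with the other groups for such a fit. The size of a tested pairwise difference is reported as a bound where no array of a group was above background. Other fitted values of dim probes rest partly on signals at background.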
